A study of Mus musculus with 4 samples.

Results

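The data described here are the transcripts of 10 Polycomb complex genes, Ezh1, Ezh2, Suz12, Eed, Jarid2, Bmi1, Cbx7, Cbx8, Ring1 and Rnf2, chosen by symbol from the 32285 genes counted in mouse LSK cells. LSK cells (Lineage-, Sca-1+, cKit+) are the bone marrow fraction in which hematopoietic stem cells (HSCs) and multipotent progenitors (MPPs) are found. Single-cell RNA-Seq (10x 3' v3) had been run on one library at homeostasis and one library 9 days after 5-fluorouracil (5-FU) at 100 mg/kg, injected intraperitoneally. 5-FU is toxic to dividing cells. The mice were adults on a C57BL/6 background, male in the homeostasis library per the study's methods, and no source used here gives their age in weeks. Wild-type cells came from Sin3B F/F mice without Cre, called WT in the labels. Knockout cells (3B KO in the labels, Sin3B H-/- in the methods) came from Sin3B F/F mice with the Vav1-iCre transgene, which is active throughout the blood system from fetal life. Sin3B is a scaffold of a histone deacetylase complex. In each library the cells of 2 mice per genotype were pooled and marked with one hashtag antibody per genotype, TotalSeq-B0096 for wild type and TotalSeq-B0157 for knockout. The data therefore hold 4 pools, with 1 pool of each genotype in a library, and mouse, hashtag and genotype cannot be told apart within a library. Condition and library coincide, so levels were not compared between homeostasis and 5-FU.

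Polycomb proteins keep genes silent through histone marks. Polycomb repressive complex 2 (PRC2) places methyl groups on lysine 27 of histone H3 through EZH2 or its paralog EZH1, on a core that also needs SUZ12 and EED, and JARID2 is an accessory subunit that helps to bring PRC2 to chromatin. PRC1 places ubiquitin on histone H2A through RING1 or RNF2 (RING1B), which pair with a PCGF protein such as BMI1 (PCGF4), and the chromodomain proteins CBX7 and CBX8 tie canonical PRC1 to methylated H3. EZH1 is known as the PRC2 enzyme of resting cells and EZH2 as that of dividing cells, while BMI1 and CBX7 are known for their roles in the self-renewal of HSCs.

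After removal of cells with both tags, no tag, extreme quality values or lineage transcripts, the homeostasis library held 10284 wild-type and 4120 knockout cells and the 5-FU library 4837 and 3292. Cells had a median number of unique molecular identifiers (UMIs) of 6982 and 6620 at homeostasis and 9295 and 10946.5 after 5-FU, wild type first. The libraries shared 76 barcodes. Cells fell into 3 classes. LT-HSC-like cells were clusters in which most of 10 long-term HSC markers (Procr, Slamf1, Mecom, Hlf and others) were raised. All 10 were raised in these clusters at homeostasis (4 and 8) and in cluster 7 after 5-FU, which held 41 wild-type and 372 knockout cells. After 5-FU, 7 of 10 were raised in cluster 1 (869 and 572 cells) and 6 of 10 in cluster 4 (456 and 465), wild type first. The remaining progenitors were split by S and G2/M scores into cycling and non-cycling cells. There were 1137 and 1325 LT-HSC-like, 5514 and 1815 non-cycling and 3625 and 967 cycling cells at homeostasis, and 1366 and 1409, 1941 and 778, and 1509 and 1098 after 5-FU, wild type first. Of all kept cells, 1014 at homeostasis and 845 after 5-FU lay within 0.02 of the cut between cycling and non-cycling. The 10 members, their pathway lists and the cycle genes took no part in the clustering. Different clusters held most stem cells of the genotypes at homeostasis, and after 5-FU 2 of the LT-HSC-like clusters held many cells of both. At homeostasis 1026 of the wild-type cells were in cluster 8 (led by Runx1t1, Pkhd1l1 and Gucy1a2) and 1279 of the knockout cells in cluster 4 (Pdgfc, Dnm3 and Slc17a8). Mki67, Top2a and Pcna, kept out of the scores, were 17.0 to 21.6, 12.1 to 16.8 and 2.76 to 3.60 times as high in cycling as in non-cycling progenitors over the 4 pools. Sin3b, the targeted gene, stood at 79.5 to 118 CPM (the UMIs of a gene scaled to one common total) in wild-type and 12.0 to 24.1 CPM in knockout classes. Summed markers of other cell types reached 228 CPM for T and NK cells, 73.9 for endothelium, 70.7 for red cells, 51.1 for mast cells and basophils, 35.4 for B cells, 11.5 for macrophages and 1.02 for stroma in their highest class, against 1813 to 3623 CPM of the LT-HSC markers in LT-HSC-like cells.

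All 10 members had at least 50 UMIs in every comparison. A level below is the CPM of the summed cells of a class in a pool, and ranges in square brackets are exact Poisson intervals at 95% that cover counting error only. In the near-empty barcodes of the homeostasis library, which sample free RNA, the members stood at 6.47 to 125 CPM, against 7.16 to 173 CPM in cells. Bmi1 was higher there (30.4 [22.3, 40.4] against 18.2 CPM in cells), Ezh2 (125 [108, 144] against 173), Suz12 (93.2 [78.6, 109.7] against 132) and Rnf2 (34.9 [26.2, 45.6] against 46.7) were lower, and the intervals of the other 6 took in the level in cells. Free RNA thus carries these transcripts, and its part in the values below was not tested.

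Ezh2 had the steepest rise in dividing cells. Its level in wild-type cells at homeostasis was 78.1 [72.0, 84.5] CPM in LT-HSC-like cells, 104 [101, 107] in non-cycling and 276 [271, 281] in cycling progenitors. In knockout cells at homeostasis the levels were 82.7 [76.9, 88.8], 100.4 [94.9, 106] and 282 [272, 293] CPM. After 5-FU they were 73.8, 86.8 and 218 CPM in wild-type and 68.1, 79.2 and 211 CPM in knockout cells. The order of the classes was the same in every pool, with LT-HSC-like cells lowest and cycling progenitors highest, and no cycling level came near a non-cycling one. The fold between cycling and non-cycling progenitors was 2.51 to 2.81 over the pools, and LT-HSC-like cells held 0.28 to 0.34 of the cycling level. Counted per cell, Ezh2 went from 0.720 UMIs in non-cycling to 2.87 in cycling wild-type progenitors at homeostasis.

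Suz12, the PRC2 core subunit, rose with it. At homeostasis it stood at 109.9 [103, 118], 105 [101, 108] and 169.8 [166, 174] CPM in LT-HSC-like, non-cycling and cycling wild-type cells, and at 104, 105 and 171 CPM in knockout cells. After 5-FU the levels were 94.2, 93.5 and 157.04 CPM in wild-type and 93.8, 94.8 and 159.6 CPM in knockout cells. The intervals of LT-HSC-like and non-cycling cells overlapped in every pool, and cycling cells were 1.62 to 1.68 times as high as non-cycling ones. Ezh2 and Suz12 were the 2 of 10 members that were at least 1.5-fold higher in cycling than in non-cycling progenitors in all 4 pools, a mark that 5.74% of 11046 genes reached. With cells assigned by a tag share of 80%, the lowest pool of Suz12 was 1.47-fold. None of the 10 was 1.5-fold lower in all pools, against 2.53% of genes. Eed, the histone-mark reader of PRC2, was 1.11 to 1.22 times as high in cycling as in non-cycling cells, with 59.4 and 70.3 CPM in wild-type cells at homeostasis.

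Ezh1 ran the other way from Ezh2. At homeostasis wild-type cells held 56.8 [51.7, 62.3] CPM in the LT-HSC-like class, 50.5 [48.2, 52.8] in non-cycling and 39.3 [37.4, 41.4] in cycling progenitors. Knockout cells at homeostasis held 71.3 [66.0, 77.1], 53.0 [49.0, 57.2] and 39.2 [35.5, 43.2] CPM. After 5-FU the levels were 45.2 [41.4, 49.2], 37.7 [34.9, 40.6] and 21.6 [19.8, 23.6] CPM in wild-type cells. In knockout cells after 5-FU they were 53.5 [49.7, 57.5], 37.1 [32.9, 41.6] and 17.3 [15.6, 19.2] CPM. The highest class was LT-HSC-like and the lowest was cycling in every pool. The LT-HSC-like level was 1.13 to 1.44 times the non-cycling one. The intervals of these classes met in the least different pool, wild type at homeostasis, where the log2 ratio was 0.17 [0.02, 0.32]. Scaling by edgeR's TMM factors moved that ratio by −0.14, so the place of its interval above 0 depends on the scaling. In wild-type cells after 5-FU the move was −0.10, about the lower end of the interval of their ratio, 0.26 [0.10, 0.43]. The median log2 ratio over the pools was 0.35, and 0.08 with the LT-HSC class taken from the study's signature, under which the stem class was the higher one in 2 of 4 pools (0.91 to 1.40 times the non-cycling level). Cycling progenitors held 0.47 to 0.78 of the non-cycling level. Cycling cells had more UMIs in all, and per cell Ezh1 was not lower in them at homeostasis: 0.349 UMIs in non-cycling and 0.410 in cycling wild-type cells, 0.361 and 0.425 in knockout cells. After 5-FU it was 0.345 and 0.323 UMIs per cell in wild-type and 0.371 and 0.344 in knockout cells.

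The promoters of the members whose levels moved most are shown for their sequence, since Ezh2 and Suz12 moved together and Ezh1 and Cbx7 moved against them. Each is the 250 bases before the RefSeq start site (GRCm38.p6), 5' to 3' on the strand of the gene, and capitals mark an E2F-type motif.
Ezh2, chr6:47595031-47595280, minus strand: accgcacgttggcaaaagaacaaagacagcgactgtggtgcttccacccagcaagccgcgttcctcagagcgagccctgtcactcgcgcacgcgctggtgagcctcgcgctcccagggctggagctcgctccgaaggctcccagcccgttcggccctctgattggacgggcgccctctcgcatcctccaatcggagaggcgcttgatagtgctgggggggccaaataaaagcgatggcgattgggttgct
Suz12, chr11:79992856-79993105, plus strand: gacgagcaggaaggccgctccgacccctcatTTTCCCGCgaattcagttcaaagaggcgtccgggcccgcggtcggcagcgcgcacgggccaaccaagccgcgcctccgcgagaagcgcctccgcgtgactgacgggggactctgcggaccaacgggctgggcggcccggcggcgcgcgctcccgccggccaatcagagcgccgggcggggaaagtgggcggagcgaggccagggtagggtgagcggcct
Ezh1, chr11:101226464-101226713, minus strand: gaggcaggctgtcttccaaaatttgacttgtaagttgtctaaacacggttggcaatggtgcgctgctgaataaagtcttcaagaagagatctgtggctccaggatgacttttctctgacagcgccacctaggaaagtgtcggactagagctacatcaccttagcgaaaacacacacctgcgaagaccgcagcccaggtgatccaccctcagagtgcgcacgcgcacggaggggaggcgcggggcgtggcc
Cbx7, chr15:79932647-79932896, minus strand: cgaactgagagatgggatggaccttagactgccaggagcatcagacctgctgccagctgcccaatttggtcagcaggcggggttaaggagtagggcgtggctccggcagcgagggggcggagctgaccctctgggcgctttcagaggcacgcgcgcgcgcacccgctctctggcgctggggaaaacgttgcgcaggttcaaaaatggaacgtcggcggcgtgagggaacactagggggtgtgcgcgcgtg
The E2F-type motifs searched were TTTGGCGC, TTTCCCGC and TTTCGCGC on both strands, letters of the kind bound by E2F factors, which switch on genes of DNA replication. RefSeq promoter windows matched all 10 symbols, with 2 windows for Jarid2. In windows from 250 bases before to 50 after the start, a match was found for Ezh2 and Suz12 and for no other member, and 1.84% of 32851 promoters held one. The Suz12 match lay 219 to 212 bases before the start, and the Ezh2 match, TTTGGCGC, lay 3 to 10 bases after the base at the start site, outside the stretch printed above. The motif TTTGAA (CHR), searched on both strands, was found for Suz12, Cbx7 and, at 2 places, Eed, and in 17.9% of all promoters. Letters in a window are not evidence of binding, and the members' windows were richer in G and C (54.7% to 74%) than the median promoter (52.7%).

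Cbx7, a PRC1 reader, was highest in stem cells. Its level at homeostasis was 25.0 [21.6, 28.7], 14.5 [13.3, 15.7] and 11.2 [10.2, 12.3] CPM in LT-HSC-like, non-cycling and cycling wild-type cells, and 21.5 [18.6, 24.7], 12.8 [10.8, 14.9] and 10.7 [8.8, 12.9] CPM in knockout cells. After 5-FU it was 26.99 [24.1, 30.1], 17.0 [15.1, 19.0] and 8.7 [7.6, 10.0] CPM in wild-type and 26.3 [23.6, 29.1], 13.3 [10.9, 16.2] and 9.0 [7.8, 10.3] CPM in knockout cells. LT-HSC-like cells were above both progenitor classes in all 4 pools with no overlap of intervals. The fold over non-cycling progenitors was 1.59 to 1.96, and per cell Cbx7 went from 0.1001 UMIs in non-cycling to 0.172 in LT-HSC-like wild-type cells at homeostasis. Cbx7 was the 1 of 10 members at least 1.5-fold higher in LT-HSC-like than in non-cycling cells in all 4 pools, against 4.08% of 10953 genes, and 0 of 10 were 1.5-fold lower, against 1.23%. Its lowest pool fell under 1.5-fold when scaled by TMM factors (1.48-fold), with counts thinned to 4000 UMIs per cell (1.46-fold), with lineage cells kept (1.39-fold) and with the LT-HSC class taken from the study's signature (1.15-fold), and the LT-HSC-like level stayed the higher one in all 4 pools under each of these.

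Among the other readers of canonical PRC1, Cbx6 was also higher in LT-HSC-like cells and Cbx2 was lower. Cbx6 stood at 74.1, 43.5 and 41.5 CPM in LT-HSC-like, non-cycling and cycling wild-type cells at homeostasis, and was 1.60 to 1.70 times as high in LT-HSC-like as in non-cycling cells over the 4 pools. Cbx2 was lower in LT-HSC-like than in non-cycling cells in all 4 pools, at 0.66 to 0.86 of their level, on 48 to 90 UMIs per LT-HSC-like sum. The interval of its ratio took in 1 in knockout cells at homeostasis and in wild-type cells after 5-FU. Cbx8, itself on only 55 to 142 UMIs per LT-HSC-like sum, held 0.73 to 0.93 of the non-cycling level in LT-HSC-like cells and 0.52 to 0.73 in cycling cells.

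**Figure D1:**
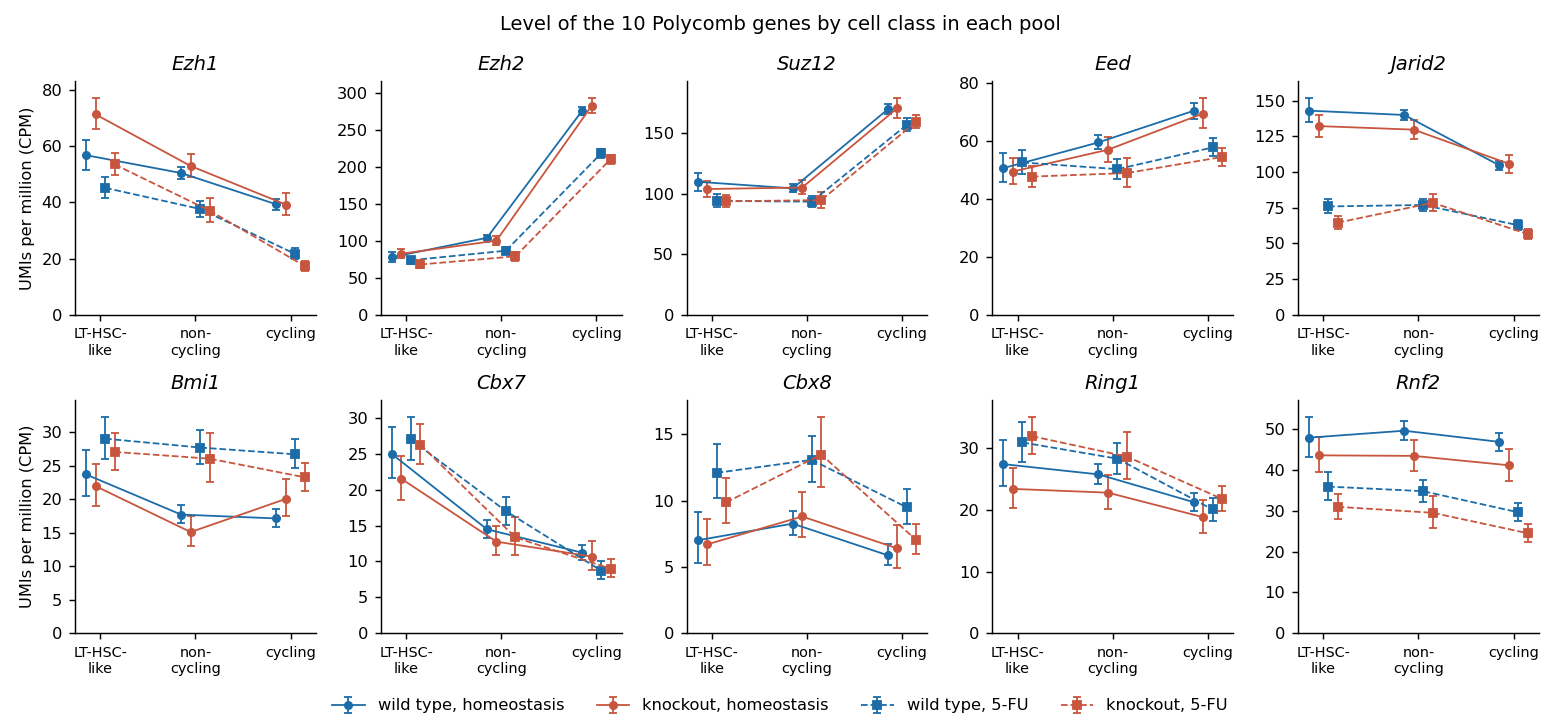
Levels of the 10 genes, in CPM on an axis from 0, in LT-HSC-like cells, non-cycling and cycling progenitors. Each line is 1 of 4 pools (blue wild type, red knockout, circles with solid lines homeostasis, squares with dashed lines 5-FU) and bars are exact 95% Poisson intervals of the counts. Ezh2 and Suz12 climb in cycling cells, while Ezh1 and Cbx7 are highest in LT-HSC-like cells in all 4 pools (Ezh1 in 2 of 4 over non-cycling cells with the class taken from the study's signature). For Ezh1 in wild-type cells, whether the interval of the log2 ratio of LT-HSC-like to non-cycling cells clears 0 depends on the scaling.

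Paralog use followed from these levels. The share of Ezh1 in the UMIs of Ezh1 and Ezh2 was 42.1% [39.1, 45.2] in LT-HSC-like, 32.6% [31.4, 33.9] in non-cycling and 12.5% [11.9, 13.1] in cycling wild-type cells at homeostasis, with exact binomial intervals. In knockout cells it was 46.3% [43.7, 49.0], 34.5% [32.4, 36.7] and 12.2% [11.1, 13.3]. After 5-FU it was 38.0% [35.4, 40.6], 30.3% [28.4, 32.2] and 9.02% [8.27, 9.82] in wild-type and 44.0% [41.6, 46.4], 31.9% [28.9, 35.0] and 7.61% [6.89, 8.38] in knockout cells. No interval of one class met that of another within a pool. LT-HSC-like cells were 29.0 to 36.4 percentage points above cycling progenitors, and 7.71 to 12.1 points above non-cycling progenitors. A 3' count need not catch both genes equally, so these shares order the classes and do not say which paralog is the more abundant.

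The share of Cbx7 in Cbx7 and Cbx8 was highest in LT-HSC-like cells in every pool. It was 69.1% to 78.1% in LT-HSC-like cells, 49.8% to 63.7% in non-cycling and 47.9% to 65.6% in cycling progenitors, and LT-HSC-like cells were 12.5 to 22.9 points above non-cycling ones. Between cycling and non-cycling progenitors the difference had no common sign (−8.62 to 6.40 points). The share of Ring1 in Ring1 and Rnf2, the catalytic pair of PRC1, was 3.55 to 5.88 points higher in LT-HSC-like cells than in cycling progenitors, and the class intervals overlapped in all 4 pools. The share of Bmi1 in Bmi1 and Pcgf2 (MEL18), its closest paralog, was 66.0% to 78.4% in LT-HSC-like cells and 65.0% to 79.7% in cycling cells, and LT-HSC-like minus cycling ran from −1.34 to 3.36 points.

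**Figure D2:**
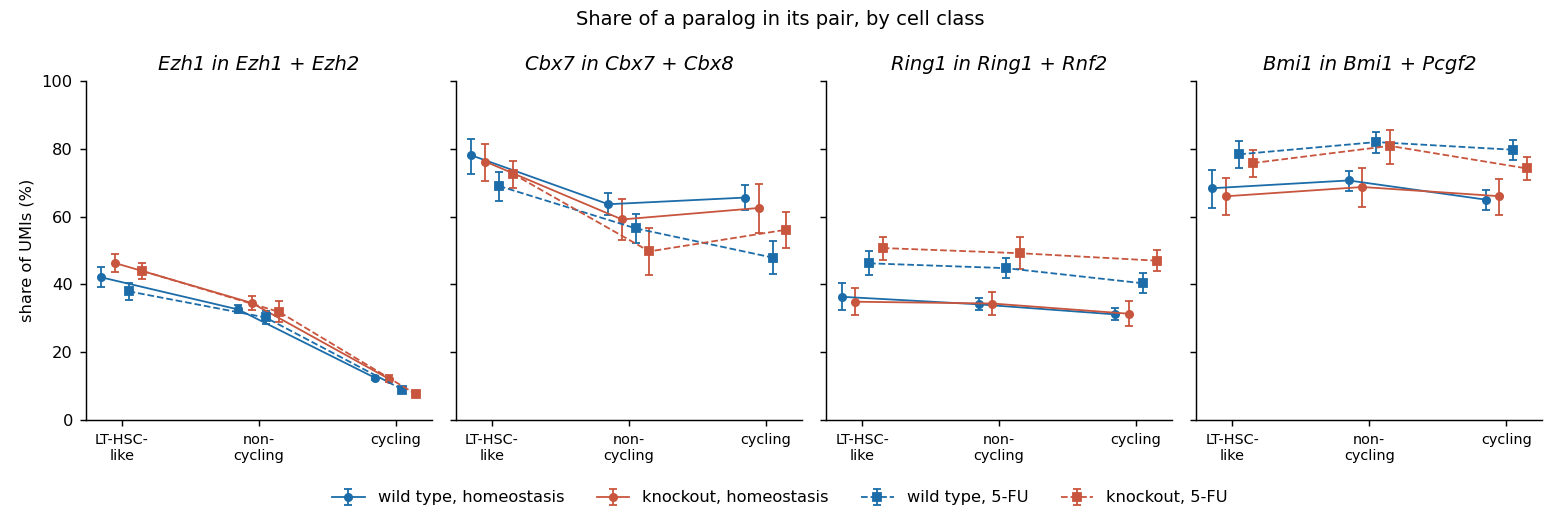
Share of the first-named gene in the summed UMIs of its pair, in percent, by cell class. Lines are the 4 pools (colours, markers and line styles as named in the legend) and bars are exact 95% binomial intervals. The Ezh1 share falls from 38.0% to 46.3% in LT-HSC-like cells to 7.61% to 12.5% in cycling progenitors. The Ring1 and Bmi1 shares change less between these classes, and the Bmi1 share is highest in non-cycling progenitors in all 4 pools.

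Bmi1, the PCGF subunit, was 1.04 to 1.45 times as high in LT-HSC-like as in non-cycling cells. Wild-type cells at homeostasis held 23.7 [20.4, 27.4], 17.7 [16.4, 19.1] and 17.1 [15.8, 18.5] CPM in the 3 classes, knockout cells 22.0, 15.1 and 20.05, and after 5-FU the levels were 29.0, 27.7 and 26.7 CPM in wild-type and 27.1, 26.0 and 23.3 CPM in knockout cells. The LT-HSC-like interval stood clear of the non-cycling one at homeostasis and met it after 5-FU. After 5-FU the log2 ratios of these classes were 0.07 in wild-type and 0.05 in knockout cells, and TMM factors moved them by −0.10 and −0.05. Pcgf2, the paralog of Bmi1, was 1.32 to 1.65 times as high in LT-HSC-like as in non-cycling cells, with ratio intervals that took in 1 after 5-FU. Ring1 was 1.03 to 1.11 times the non-cycling level in LT-HSC-like cells and 0.71 to 0.83 of it in cycling cells, where the interval of the ratio lay below 1 in all 4 pools. Rnf2 was within 0.97 to 1.05 of the non-cycling level in LT-HSC-like cells and 0.83 to 0.95 in cycling cells. Jarid2 was 0.72 to 0.82 of the non-cycling level in cycling cells, with 143, 140 and 105 CPM in the classes of wild-type cells at homeostasis, while per cell it was 0.968 UMIs in non-cycling and 1.09 in cycling cells. Scaling by TMM factors moved the ratio of cycling to non-cycling cells by −0.01 to 0.22 on the log2 scale, and with it Rnf2 was at 0.94 to 0.96 of the non-cycling level. In 5-FU knockout cells that move was 0.22. The Ring1 interval there ended at −0.16 on the log2 scale, so its place below 0 depends on the scaling. In wild-type cells at homeostasis Ring1 had 981 UMIs over 5514 non-cycling and 802 over 3625 cycling cells.

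Within the cycling class the members differed in phase. Jarid2 was higher in G2/M than in S phase progenitors in all 4 pools by 0.08 to 0.40 on the log2 scale, with 3 of 4 counting intervals above 0, and Rnf2 by 0.07 to 0.30, also with 3 of 4. Ezh1 was higher by 0.23 to 0.52, with 2 of 4 intervals above 0. Bmi1 was lower in G2/M in all 4 pools, at −0.42 to −0.09, with 3 of 4 intervals below 0. Ezh2 (−0.13 to 0.09) and Suz12 (−0.11 to 0.11) had no common sign over the pools. The paralogs Cbx2 (−0.99 to −0.67), Pcgf2 (−0.89 to −0.35) and Cbx6 (−0.41 to −0.05) were lower in G2/M in all 4 pools, and Mki67, held out of the scores, was higher by 1.96 to 2.28. Few LT-HSC-like cells scored as cycling (46 to 124 per pool). In them Ezh2 was 115 [85.0, 151] against 75.9 [69.8, 82.5] CPM in other wild-type LT-HSC-like cells at homeostasis, and 137 [107, 173] against 79.4 [73.6, 85.6] CPM in knockout cells. After 5-FU the intervals overlapped, with 73.0 [57.9, 90.9] against 73.9 [68.8, 79.2] CPM in wild-type and 71.5 [57.5, 87.9] against 67.8 [63.3, 72.5] CPM in knockout cells. Mki67 in those cycling LT-HSC-like cells was 20.1 to 37.4 CPM, against 371 to 528 CPM in cycling progenitors.

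Across the clusters of at least 50 cells, 15 at homeostasis and 13 after 5-FU, Ezh2 spanned 4.68-fold and 5.38-fold. It was highest in dividing megakaryocyte-erythroid (MPP2)-like cells, with 375 [353, 397] CPM in cluster 13 at homeostasis and 291 [278, 303] CPM in cluster 10 after 5-FU, both 100% in S or G2/M, and the next-highest cluster overlapped it within counting error in each library. It was lowest in LT-HSC-like clusters, with 80.1 [73.7, 86.9] CPM in cluster 8 at homeostasis and 53.9 [46.3, 62.4] CPM in cluster 7 after 5-FU (led by Cyp26b1, Cldn5 and Gpr183). Ezh1 was highest in that same cluster 7, at 85.8 [76.1, 96.3] CPM. At homeostasis it was highest in a small unnamed cluster of 266 cells led by Gm8251, Hist1h2bc and Ccnb2 (73.9 [61.4, 88.4] CPM), of which 59.4% were in S or G2/M, and its interval overlapped that of LT-HSC-like cluster 4 (70.6 [65.5, 76.1] CPM).

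Cbx7 too peaked in LT-HSC-like clusters, at 25.5 [21.9, 29.4] CPM in cluster 8 at homeostasis and 37.3 [31.0, 44.5] CPM in cluster 7 after 5-FU, and the next-highest cluster was LT-HSC-like in both libraries, with overlapping intervals. Jarid2 was lowest in neutrophil (MPP3)-like clusters of mostly dividing cells, with 79.8 [74.6, 85.2] CPM in cluster 7 at homeostasis (93.6% in S or G2/M) and 32.8 [29.8, 36.1] CPM in cluster 6 after 5-FU (92.6%). It was highest in cluster 2 at homeostasis, led by Synpo2 (156 [150.1, 163] CPM, 12.7% in S or G2/M), and in cluster 12 after 5-FU, led by Igf2bp3 (106 [86.8, 128] CPM, 38.4%). Megakaryocyte-erythroid-like clusters held 141 [132, 151] and 135 [122, 148] CPM at homeostasis (53.4% and 100% in S or G2/M) and 102 [96.4, 107] and 70.2 [64.4, 76.5] CPM after 5-FU (62.2% and 100%). After 5-FU, Bmi1 (54.99 [41.4, 71.6] CPM) and Rnf2 (64.0 [49.3, 81.7] CPM) were also highest in cluster 12, an unnamed cluster of 208 wild-type and 8 knockout cells, with 33.5 and 36.1 CPM in the next cluster. That cluster had a median of 3864.5 UMIs per cell, low for its library.

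**Figure D3:**
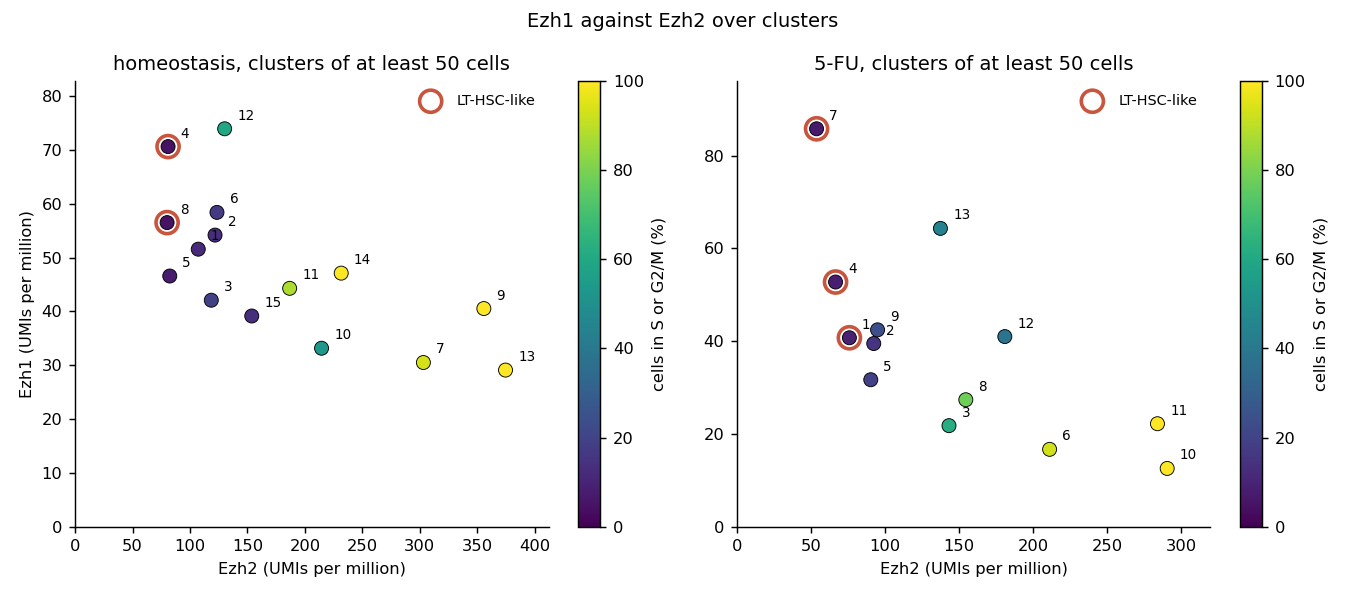
Ezh1 against Ezh2, both in CPM, with 1 point per cluster of at least 50 cells in each library. Colour is the share of cells in S or G2/M, rings mark LT-HSC-like clusters and numbers name the clusters. The clusters highest in Ezh2 are of mostly dividing cells and LT-HSC-like clusters lie at its low end, while cluster 12 at homeostasis, with 59.4% of cells in S or G2/M, has the highest Ezh1 of its library.

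Over the 23 sums of cluster and genotype in each library, Pearson's r of log2 CPM was 0.94 at homeostasis and 0.90 after 5-FU for Ezh2 with Suz12, and −0.65 and −0.78 for Ezh1 with Ezh2. Ezh1 and Cbx7 had r of 0.63 and 0.71. These are descriptions over sums that share a library and differ in their share of dividing cells. Among 9865 genes, those most like Ezh2 by the lower of both r were Rrm1 (0.97 and 0.97, the large subunit of ribonucleotide reductase and a gene of the S score), Hnrnpa3, Cenpk (a kinetochore protein), Pclaf (a partner of PCNA) and Rad18 (a ubiquitin ligase of DNA repair), all at 0.946 or more. Those most like Ezh1 were Fam160b1 (0.85 and 0.86), Crebrf, Lpar6, Cerk (ceramide kinase) and Cln3, all at 0.83 or more. For Cbx7 they were Spaca6 (0.86 and 0.82), Smpdl3a, Wls, Procr, itself one of the LT-HSC markers, and Klhl4. For Jarid2 they were Madd (0.84 and 0.83), Itih5, Dennd6a, Tut7 and Prkcq. For Bmi1 the likeness was weaker, with Gm28187 (0.69 and 0.70), 2900097C17Rik, Herpud2, Dennd5b and Igip.

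Between genotypes, none of the 10 members was 1.5-fold apart over a whole class of either library. At homeostasis 6.28%, 9.65% and 8.86% of genes were that far apart in LT-HSC-like, non-cycling and cycling cells, and after 5-FU 6.50%, 6.56% and 7.10%, so a count of 0 of 10 is near the background. The counting interval of the ratio left out 0 for 1, 2 and 1 members at homeostasis and for 3, 2 and 5 after 5-FU, in the same order of classes. No share of all genes is given for this measure, so these counts are not read as particular to the members. There is 1 pool per genotype in a library and so no test within it. In the edgeR quasi-likelihood fit over both libraries 0 of 10 were called in any class (Benjamini-Hochberg adjusted p under 0.05), against 1.13% of 14303, 3.27% of 14616 and 4.07% of 15142 genes in LT-HSC-like, non-cycling and cycling cells. At an unadjusted p under 0.05 there was 1 member in each class (Ezh1, Rnf2 and Rnf2), and DESeq2 called 0, with 0 at that unadjusted p, of the 10, 10 and 8 members to which it gave an adjusted p. The shares above are for the adjusted p, and none is given for the unadjusted p, so that count is not read as a result. The fit had 1 residual degree of freedom, so its p-values rest mostly on the spread of all genes.

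For PRC2, the log2 ratio of knockout to wild type was within −0.13 to 0.08 for Ezh2, −0.08 to 0.02 for Suz12 and −0.14 to −0.02 for Eed over the 6 combinations of library and class, and each exact binomial interval lay within −0.30 and 0.24. These bounds cover counting error only. Jarid2 ran from −0.23 [−0.37, −0.10] in LT-HSC-like cells after 5-FU to 0.03 [−0.11, 0.17] in non-cycling progenitors after 5-FU. With cells assigned by a tag share of 80%, its ratio in LT-HSC-like cells turned from −0.23 to 0.16 after 5-FU and from −0.11 to 0.24 at homeostasis. That setting left 281 wild-type LT-HSC-like cells after 5-FU and 203 knockout ones at homeostasis, with the clusters redrawn.

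Ezh1 was higher in knockout stem cells of both libraries. In LT-HSC-like cells it was 56.8 CPM in wild type and 71.3 CPM in knockout at homeostasis (log2 ratio 0.33 [0.15, 0.51]), and 45.2 and 53.5 CPM after 5-FU (0.24 [0.08, 0.41]). Summed lineage markers differed between the genotypes in the same cells. Those of lymphoid cells were 286 and 268 CPM at homeostasis and 176 and 94.2 CPM after 5-FU, those of neutrophil progenitors 433 and 362, and 849 and 671 CPM, and those of megakaryocyte-erythroid cells 180.4 and 227, and 284 and 347 CPM, wild type first. Their part in the Ezh1 difference was not tested. The edgeR estimate over both was 0.30 (Benjamini-Hochberg adjusted p = 0.185), which does not pass the test, and under the alternatives the edgeR or DESeq2 adjusted p ran from 0.0027 to 0.9999. In non-cycling progenitors the ratios were 0.07 [−0.06, 0.20] and −0.02 [−0.23, 0.18], and in cycling progenitors −0.00 [−0.16, 0.16] and −0.32 [−0.52, −0.12], homeostasis first. The difference of the knockout effect between LT-HSC-like and cycling cells, tested in an edgeR model chosen after the values were seen, was 0.45 (adjusted p = 0.0103), and 1.04% of 15162 genes passed that test. Between LT-HSC-like and non-cycling cells it was 0.26 (adjusted p = 0.383), with 0.774% of 15110 genes past it. Over 6 alternatives for choosing cells the difference from cycling cells ran from 0.37 to 0.71 (edgeR adjusted p from 0.00025 to 0.226). There 5 of 6 passed, and the call was lost with HTODemux at 0.95. The difference from non-cycling cells ran from 0.25 to 0.53 (adjusted p from 0.0057 to 0.485), and 2 of 6 passed, those with a tag share of 80% and with the signature class.

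The LT-HSC-like cells of the genotypes lay largely in different clusters at homeostasis. After 5-FU, cluster 1 held 869 wild-type and 572 knockout cells and cluster 4 held 456 and 465. Cluster 7 was mostly knockout, with 41 and 372. At homeostasis Ezh1 was 55.4 [50.001, 61.3] CPM in the 1026 wild-type cells of cluster 8 and 71.1 [65.6, 76.9] CPM in the 1279 knockout cells of cluster 4. The few cells of the other genotype gave 76.8 [51.0, 111] CPM for 46 knockout cells in cluster 8 and 66.4 [51.3, 84.4] CPM for 111 wild-type cells in cluster 4, intervals too wide to part the genotypes. After 5-FU the knockout level was no higher in cluster 1 (38.3 [33.9, 43.1] against 42.8 [38.5, 47.5] CPM) and close to wild type in cluster 4 (54.4 [47.0, 62.6] against 50.9 [43.2, 59.6] CPM). In cluster 7 it was 88.6 [78.4, 99.9] CPM in 372 knockout cells, against 55.6 [31.8, 90.3] CPM in 41 wild-type cells. Within each cluster the genotypes' intervals overlapped, and the part of the cluster makeup in the difference over the whole class was not tested.

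**Figure D4:**
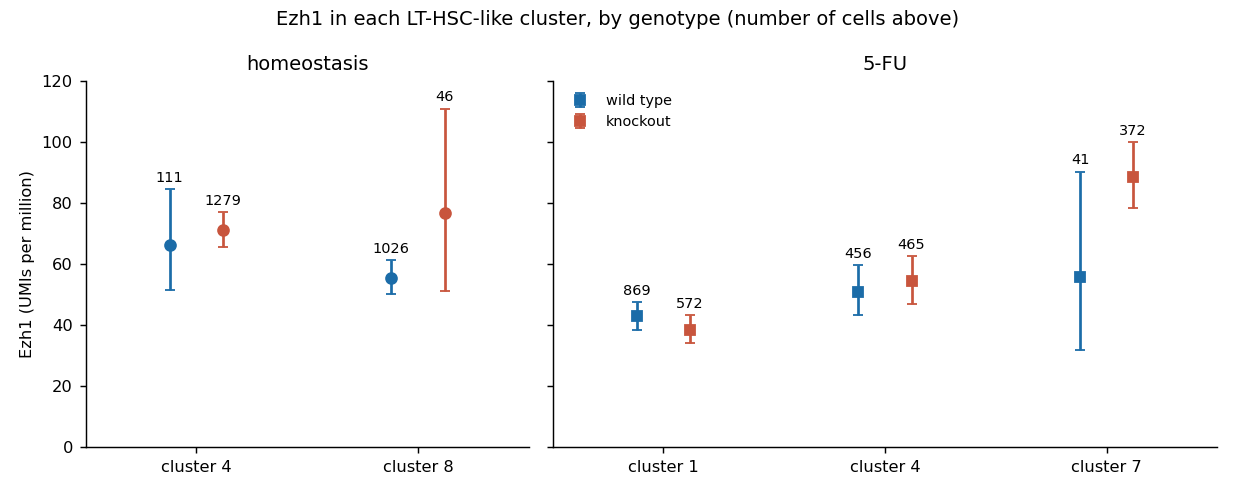
Ezh1, in CPM on an axis from 0, in each LT-HSC-like cluster of both libraries, with wild type in blue and knockout in red. Bars are exact 95% Poisson intervals and the number above each is its count of cells. Knockout cells are 1279 of the 1390 in homeostasis cluster 4 and 372 of the 413 in 5-FU cluster 7, and in 5-FU clusters 1 and 4 the genotypes overlap.

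For PRC1, Rnf2 was lower in knockout cells in all 6 combinations. The classes of a library share its mice and hashtags, so the 6 are not independent comparisons. At homeostasis it was 47.9 and 43.6 CPM in wild-type and knockout LT-HSC-like cells, 49.6 and 43.4 in non-cycling and 46.9 and 41.1 in cycling cells. After 5-FU it was 35.9 and 31.0, 34.8 and 29.5, and 29.6 and 24.5 CPM. The log2 ratios ran from −0.14 [−0.34, 0.07] to −0.27 [−0.44, −0.11], and 5 of 6 intervals lay below 0. The edgeR adjusted p was 0.584, 0.276 and 0.263 in LT-HSC-like, non-cycling and cycling cells, so the difference did not pass the test. With cells assigned by a tag share of 80%, the homeostasis ratio in LT-HSC-like cells was 0.33, the opposite sign, on 675 wild-type and 203 knockout cells. Without the cluster led by Igf2bp3, which held mostly wild-type cells and had the highest Rnf2, the ratio after 5-FU was −0.19 [−0.42, 0.03] in non-cycling and −0.24 [−0.41, −0.07] in cycling cells. Ring1, its paralog, was −0.23 to −0.17 at homeostasis and 0.02 to 0.12 after 5-FU, with every interval reaching 0.

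Bmi1 ran from −0.23 [−0.47, 0.01] in non-cycling to 0.23 [−0.00, 0.45] in cycling progenitors at homeostasis. Cbx7 was between −0.35 [−0.69, −0.02] and 0.04 [−0.25, 0.33]. In LT-HSC-like cells after 5-FU its ratio of −0.04 covered clusters that went opposite ways with no overlap of intervals, with 28.3 [24.8, 32.1] CPM in wild-type and 16.1 [13.3, 19.3] CPM in knockout cells of cluster 1, and 23.6 [18.5, 29.8] and 36.3 [30.3, 43.2] CPM in cluster 4, named after their values were seen. Ezh2 was 77.0 [70.6, 83.9] CPM in wild-type cells and 137 [102, 181] CPM in the 46 knockout cells of cluster 8 at homeostasis. Cbx8 was between −0.43 [−0.74, −0.13], in cycling progenitors after 5-FU, and 0.13 [−0.29, 0.52]. For Bmi1, Cbx7 and Cbx8 the homeostasis and 5-FU ratios in cycling progenitors had opposite signs. The paralog Cbx6 was higher in knockout cells in all 6 combinations, by 0.20 to 0.30 on the log2 scale with every interval above 0, and passed the edgeR test in non-cycling progenitors (0.31, adjusted p = 0.0454) but not in LT-HSC-like (0.229) or cycling cells (0.138). These 6 also share pools within a library and are not independent.

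**Figure D5:**
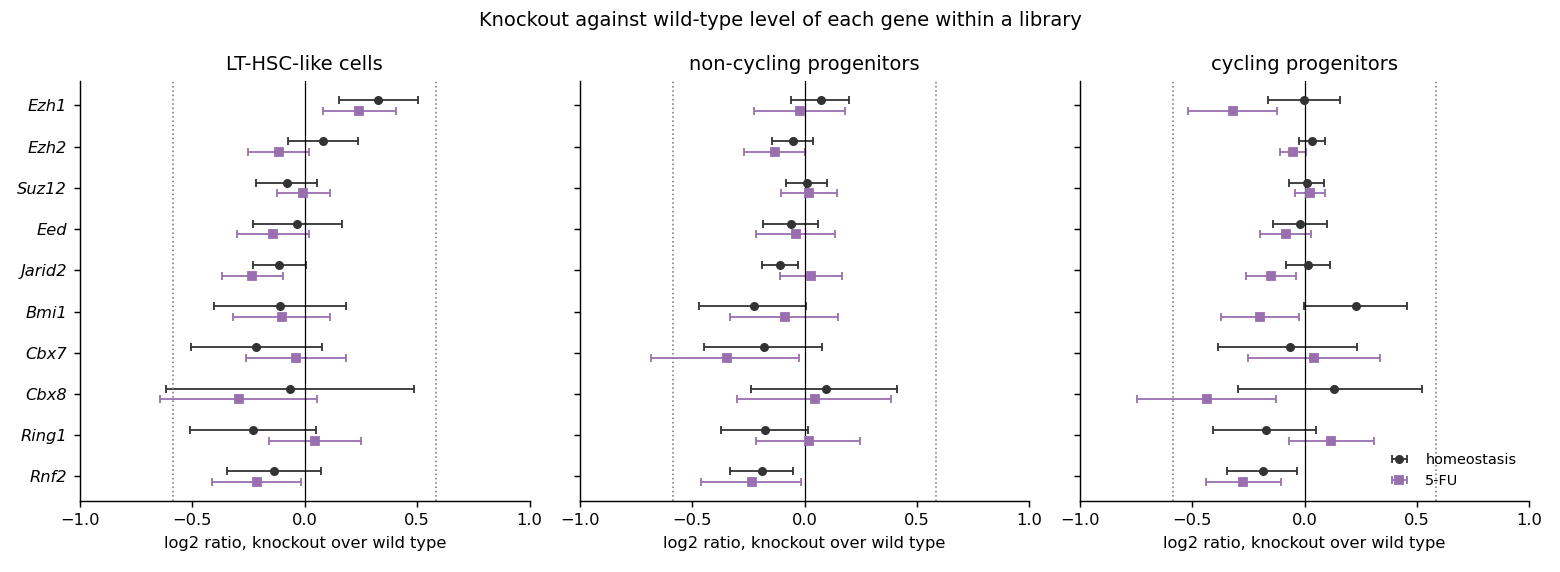
Log2 ratio of knockout to wild type for each gene, by cell class, within the homeostasis (dark circles) and 5-FU (violet squares) libraries. Bars are exact 95% binomial intervals of the counts and dotted lines mark 1.5-fold either way. All points lie inside the dotted lines, and Ezh1 in LT-HSC-like cells is the only member whose intervals lie above 0 in both libraries of a class. The intervals of Rnf2 lie below 0 in both libraries in non-cycling and in cycling progenitors.

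The wider Polycomb machinery was counted from whole lists, chosen with earlier results of these data known. The counts below are therefore descriptions and not tests of the lists. Many progenitors of the genotypes also lay in different clusters at homeostasis. There cluster 1 held 154 wild-type and 1675 knockout cells, against 1621 and 42 in cluster 2, 1566 and 27 in cluster 3 and 1319 and 37 in cluster 5. After 5-FU clusters 2 and 3 were mixed (899 and 437, and 487 and 443), while cluster 5 held 664 and 35, wild type first. Lineage markers moved with genotype in the same classes. Summed markers of megakaryocyte-erythroid cells (8 genes) were higher in knockouts, at 142 and 223 CPM in non-cycling and 189 and 508 CPM in cycling cells at homeostasis, and at 395 and 904, and 788 and 1245 CPM after 5-FU, wild type first. Those of lymphoid cells (7 genes) were lower in knockouts, at 1143 and 885, and 839 and 665 CPM at homeostasis, and at 432 and 372, and 228 and 136 CPM after 5-FU. Those of neutrophil progenitors (7 genes) were also lower, at 512 and 465, and 699.7 and 630.05 CPM at homeostasis, and at 736 and 494, and 892 and 591 CPM after 5-FU. The part of this makeup in the genotype differences of progenitors was not tested. Of 9 other PRC2 genes tested for genotype, 0, 2 and 1 were called in LT-HSC-like, non-cycling and cycling cells, all lower in knockouts. Over all genes tested, 1.13%, 3.27% and 4.07% were called in these classes. These PRC2 genes were Epop, an accessory subunit (−1.02 and −0.79 on the log2 scale, adjusted p = 0.0454 and 0.0217 in non-cycling and cycling cells), and Rbbp7, a histone-binding subunit also present in SIN3 complexes (−0.43, 0.0102, in non-cycling cells). Of 23 other PRC1 genes, 1, 3 and 1 were called. Auts2, a subunit of noncanonical PRC1, was lower in all classes (−1.48, −1.79 and −1.75), Pcgf6 was lower in non-cycling cells (−0.48, adjusted p = 0.0393) and Cbx6 was higher there. None of 10 genes for PR-DUB (the H2A deubiquitinase) and H3K27 demethylases was called. The medians of these lists lay between −0.16 and 0.02 in these fits, against −0.01 to 0.00 over all genes tested.

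Between cycling and non-cycling progenitors, Phf19, a PRC2 accessory protein, was 4.65 to 10.02 times as high in the cycling class over the pools, on 11 to 56 UMIs per non-cycling sum, and its paralog Phf1 was lower in all 4 pools (0.38 to 0.52 of the level). Scml4 (0.37 to 0.66) and the H3K27 demethylase Kdm6b (0.50 to 0.62) were also lower in cycling cells, and these 4 were the listed genes besides the members that were past 1.5-fold in all 4 pools in this comparison. Over all genes tested, 5.74% were higher and 2.53% lower by that mark. Between LT-HSC-like and non-cycling cells it was Cbx6, against 4.08% of genes higher and 1.23% lower. Of 24 known Polycomb targets, 6, 5 and 5 had enough counts to be tested in LT-HSC-like, non-cycling and cycling cells, and 0, 2 and 3 were called, all lower in knockouts, against 1.13%, 3.27% and 4.07% of all genes tested. With so few targets tested, this count describes these genes and not Polycomb targets in general. Hmga2 was lower by 0.63 and 0.58 in non-cycling and cycling cells (adjusted p = 0.00743 and 0.00874). Lin28b was lower by 0.55 and 0.56 (0.0408 and 0.0266), on 577 to 3230 UMIs per sum at homeostasis and at most 3 after 5-FU in these classes. Its value and call rest on the homeostasis library, with 1 pool per genotype, which allows no test of its own. Ebf1, a B cell factor, was lower by 1.39 in cycling cells (0.0368), in which the summed lymphoid markers were also lower, on 284 and 27 UMIs at homeostasis and 6 and 4 after 5-FU. The Ebf1 call thus rests mostly on the homeostasis library too. Most of the 24 targets had too few counts to be tested. Igf2bp2, an RNA-binding protein, had the opposite sign in progenitors, at 0.48 and 0.64 in non-cycling and cycling cells (adjusted p = 0.548 and 0.104). The tested targets' median was −0.06, −0.55 and −0.56 in LT-HSC-like, non-cycling and cycling cells.

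The genes were located in GENCODE M21 (GRCm38). Ezh2 (ENSMUSG00000029687) spans chr6:47530139-47595341 and Ezh1 (ENSMUSG00000006920) chr11:101191115-101226463, both on the minus strand. Suz12 (ENSMUSG00000017548) spans chr11:79993106-80034123 on the plus strand, Cbx7 (ENSMUSG00000053411) chr15:79915807-79971119 on the minus strand and Rnf2 (ENSMUSG00000026484) chr1:151458004-151500955 on the minus strand. Jarid2 (ENSMUSG00000038518) is the longest, 192170 bases at chr13:44729474-44921643, of which 9715 are exonic. No counted gene overlaps a member on its own strand. Counted genes lie antisense to Eed (E230029C05Rik), Cbx7 (Apobec3) and Rnf2 (Trmt1l), and the 10x 3' kit keeps strand.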

How the data were processed

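LSK cells of 2 mice per genotype had been pooled, tagged and sequenced in one homeostasis and one 5-FU library, each with a cDNA and a hashtag part. The deposited matrices hold raw UMI counts for each gene in each barcode, which the authors obtained with Cell Ranger 4 (homeostasis, all 6794880 barcodes) and 6.0.1 (5-FU, 12753 called cells). No source used here says whether introns were counted. The submitters' processing notes name mm9 with no role, and loci here are GRCm38. The gene list came with the 5-FU matrix and was used for both (r = 0.926 between the libraries' gene totals). The members, the pathway lists and the markers were chosen with earlier results of these data known.

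Barcodes of the homeostasis library with at least 2921 UMIs were taken as cells (23931). Genotype came from HTODemux (Seurat 5.3.0, quantile 0.99) and from the tags in the study's methods, since the labels give no genotype per cell. Cells with both tags (1441 and 434) or no tag (6283 and 3290) were left out, which removes doublets between genotypes and not those within one. Cells that held at least 2 UMIs over 9 lineage genes (420 and 291) and clusters of other cell types (21 and 28 cells) were also removed. Cells were clustered per library with scanpy 1.11.5 (2000 variable genes, 30 components, Leiden resolution 1). Counts were summed by class and pool. Ratios used 0.5 added counts and a minimum of 50 UMIs. Genotype was tested with edgeR 4.0.16 (quasi-likelihood, TMM, filterByExpr) in R 4.3.3 over 4 sums with library as a term, with Benjamini-Hochberg adjustment, and DESeq2 1.42.0 was an alternative. There was 1 pool per genotype in each library and 1 residual degree of freedom. The p-values rest mostly on the spread of all genes, and do not measure that of replicate pools or of single mice. Intervals cover counting error only. Named were all 10 members, their paralogs, the listed genes past a test or past 1.5-fold, and the 5 genes most like each of 5 members. The scripts were tested on simulated data.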

Additional observations from a re-analysis of the deposited data

Results flagged for a closer look

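The difference of the Ezh1 knockout effect passed a test between LT-HSC-like and cycling cells and not between LT-HSC-like and non-cycling cells. The log2 ratio of knockout to wild type was higher by 0.454 in LT-HSC-like cells than in cycling progenitors (edgeR adjusted p = 0.0103), in a model chosen after the values were seen. In LT-HSC-like cells the knockout was higher in 2 of 2 libraries (0.33 and 0.24), and in cycling progenitors the ratio was −0.00 and −0.32. Over 6 alternatives for choosing cells the difference was 0.37 to 0.71, with adjusted p from 0.00025 to 0.226, and 5 of 6 passed. Against non-cycling progenitors the difference was 0.264 (edgeR adjusted p = 0.383), which did not pass, and 2 of 6 alternatives passed. The genotype fit itself did not call Ezh1 in LT-HSC-like cells (edgeR adjusted p = 0.185). The classes of a pool share mice and hashtags. At homeostasis the LT-HSC-like cells of the genotypes lay largely in different clusters, and the part of cluster makeup was not tested.

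In the same model the effect on Hmga2, a chromatin protein of fetal HSCs and a Polycomb target, was higher by 0.661 in LT-HSC-like than in non-cycling cells and by 0.533 than in cycling cells (edgeR adjusted p = 7.29e-06 and 0.00149). Over the 6 alternatives for choosing cells the first difference was −0.14 (Leiden resolution 2) to 0.94, with adjusted p from 5.08e-09 to 1 and 2 of 6 past the threshold, and the second was 0.10 to 1.05, with adjusted p from 6.36e-08 to 1 and 3 of 6 past it. Its ratio in LT-HSC-like cells was 0.36 [0.17, 0.56] at homeostasis and −0.51 [−0.69, −0.33] after 5-FU, opposite in sign, and it was below 0 in both progenitor classes of both libraries. For Lin28b, a regulator of fetal blood formation, the effect was higher by 0.523 in LT-HSC-like than in cycling cells (edgeR adjusted p = 0.0494). That call was lost in 6 of 6 alternatives (0.26 to 0.75, adjusted p from 0.119 to 0.731), and with at most 4 UMIs per sum after 5-FU this rests on the homeostasis library.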

How the results depend on the processing

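Ezh2, Suz12 and Cbx7, the members past 1.5-fold between classes, kept their direction in that comparison under the alternatives run. Of the knockout ratios whose counting interval left out 0, that of Jarid2 in LT-HSC-like cells after 5-FU changed sign, with a tag share of 80% (0.16). Of the ratios and shares of single members, 672 moved by less than their spread or interval and 69 by more, and of the other values (counts of calls, the Ezh1 share and the Ezh1 interaction) 67 stayed, 30 moved and 1 lost its call. Members called by genotype in LT-HSC-like cells went from 0 to 1 (Ezh1) with a tag share of 80% and with the LT-HSC signature class. All genes called in LT-HSC-like cells (161) were 26 by DESeq2, 0 with no low-count filter, 375 with a tag share of 80%, 278 with HTODemux at 0.95, 564 with lineage cells kept, 76 at Leiden resolution 2 and 498 with the signature class. In non-cycling cells (478) they were 77 by DESeq2, 964 with no filter, 811 with HTODemux at 0.95, 908 at resolution 2, 264 with the signature class and 280 with a cycling score above 0.1. In cycling cells (616) they were 107 by DESeq2, 1101 with library size scaling, 1032 with no filter, 985 with HTODemux at 0.95 and 128 with the signature class. Members 1.5-fold higher in LT-HSC-like cells went from 1 to 0 with lineage cells kept, the signature class, thinning or TMM factors. Those apart between cycling and non-cycling cells went from 2 to 1 with a tag share of 80% and, at the lower fold threshold tried, to 4, with Ezh1 and Cbx8 lower in cycling cells. Those apart by genotype went from 0 to 1 (Cbx8) with lineage cells kept and to 3 at that lower fold. No share of all genes is set beside these fold counts, so they describe the members only. The Ezh1 share in LT-HSC-like minus cycling cells, a median of 31.9 points, was 37.0 with a tag share of 80% and 26.1 with the signature class. The difference of the Ezh1 knockout effect fell to 0.374 (adjusted p = 0.226) with HTODemux at 0.95. Cells were clustered anew when the set of cells changed, so the classes changed too. With a tag share of 80%, LT-HSC-like cells were 675 wild-type and 203 knockout at homeostasis, and 281 and 788 after 5-FU. With lineage cells kept they were 2376 and 1575, and 468 and 845. The cause of the changes in the results was not tested.

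Leaving out a pool leaves no residual degrees of freedom and was not run. Library as a term of the fit is itself the paired analysis, with 1 residual degree of freedom, and no other replicate numbers pair the pools. Cbx8, Cbx2 and Pcgf2 rested on the fewest UMIs.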
